A study of Mus musculus with 18 samples.

Results

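Protein arginine methyltransferases (PRMTs) form a family of 9 genes in the mouse, and all 9 are in the count table of small intestinal crypt RNA, among 55335 genes in all. They were taken by gene name: Prmt1, Prmt2, Prmt3, Carm1, Prmt6 and Prmt8 of type I, Prmt5 and Prmt9 of type II, and Prmt7 of type III. The table gives 18 libraries in 6 groups, each library from 1 mouse, with 3 libraries per group. In every mouse both Prmt1 alleles were flanked by LoxP sites (Prmt1 fl/fl). The KO mice additionally carried Vil-CreERT2, a Cre recombinase that tamoxifen activates and that the villin promoter restricts to the intestinal epithelium, and the WT mice were littermates lacking it. All mice, aged 8 to 12 weeks, received 2 mg tamoxifen per injection, and crypts were collected 2, 7 or 14 days after the first injection, following 2 injections at day 2 and 5 at the later days. The question was how far Prmt1 RNA was lost and whether the RNA of the other family members differed with it.

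PRMTs transfer methyl groups from S-adenosylmethionine to arginine side chains of histones, RNA-binding proteins and signalling proteins. Type I enzymes make asymmetric dimethylarginine, with PRMT1 the main one in most cells, type II enzymes make symmetric dimethylarginine, and the type III enzyme stops at monomethylarginine. Crypts hold the stem cells and dividing progenitors of the intestinal epithelium.

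Levels are given as CPM, read counts scaled to the TMM-normalised library size. Log2 fold changes are KO over WT and come from edgeR's quasi-likelihood test, fitted to 21349 genes with Benjamini-Hochberg adjustment over all of them. A gene was called at an adjusted p under 0.05. Total counts ranged from 12844642 to 31493484 per library, and the tested members had at least 62 counts in every library. No pair of libraries from the same group was a duplicate. Sex was not used in the tests, and p-values measure the spread between mice. With 3 libraries against 3, the exact two-sided permutation test of a single gene cannot give a p below 0.1.

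Of the 12 crypt epithelium markers, whose summed level was 11180 to 20160 CPM over all libraries, 1 was called higher (Chga) and 4 lower (Lgr5, Olfm4, Lyz1 and Dclk1) in KO at day 7, and Chga alone at day 14, where 17.3% and 7.92% of all tested genes were called. Their sums were lower in every KO library (11180 to 12900 CPM) than in every WT library (13490 to 16990 CPM) at day 7 and overlapped on the other days. The markers did not share this fall at day 7. The 4 called lower had every KO library below every WT library, and 4 (Vil1, Krt20, Chga and Alpi) had every KO library above. Over all tested genes 33.6% did not overlap. Epcam, Cdh1, Krt8 and Muc2 overlapped, with log2 fold changes of 0.01, -0.03, 0.17 and 0.05. None of the epithelial, immune, stromal or proliferation genes listed was at 0 in every library. Immune markers summed to 129.7 to 184.8 CPM in KO mice and 74.03 to 128.1 CPM in WT mice at day 14, without overlap, and to overlapping ranges at day 2 (201.6 to 222.7 and 161.2 to 213.1 CPM) and day 7 (96.14 to 155.1 and 67.67 to 165 CPM). None of the 12 immune markers was called on any day by edgeR, while 0, 1 and 2 had an unadjusted p under 0.05 at days 2, 7 and 14 and DESeq2 called 0, 0 and 1. Stromal markers summed to 27.36 to 199.5 CPM with overlap on every day, and Vim and Pecam1 rose at day 7. The 12 proliferation genes summed to 1036 to 1181 CPM in KO mice and 1260 to 1578 CPM in WT mice at day 14, without overlap, and their sums overlapped at day 2 and day 7. Of these 12, Top2a, Bub1 and Aurkb were called lower at day 14 and Aurkb at day 7, where 4.69% and 10.2% of all tested genes were called lower. The part of these shifts in the values of the family members and related genes below was not tested, and in bulk crypt RNA fewer cells of a type cannot be told apart from less RNA per cell.

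The reference promoters of Prmt1, Prmt3 and Prmt6, the members called in any comparison of KO and WT, are shown because their RNA levels carried the differences described below. Each window runs from 250 bases before to 50 bases after the start site that RefSeq gives (GRCm38.p6), at chr7:44986371-44986670 on the minus strand, chr7:49778108-49778407 on the plus strand and chr3:110250950-110251249 on the minus strand. Capitals mark matches on either strand to 4 motifs, the E-box CACGTG, the GC box GGGCGG, the CCAAT box CCAAT and the TATA box TATAAA.
Prmt1: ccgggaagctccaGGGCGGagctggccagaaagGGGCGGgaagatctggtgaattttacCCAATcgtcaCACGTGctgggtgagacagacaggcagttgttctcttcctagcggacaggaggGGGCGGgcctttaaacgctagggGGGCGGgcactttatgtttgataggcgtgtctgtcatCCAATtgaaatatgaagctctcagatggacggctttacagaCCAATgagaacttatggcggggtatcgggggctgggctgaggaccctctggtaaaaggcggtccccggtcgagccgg
Prmt3: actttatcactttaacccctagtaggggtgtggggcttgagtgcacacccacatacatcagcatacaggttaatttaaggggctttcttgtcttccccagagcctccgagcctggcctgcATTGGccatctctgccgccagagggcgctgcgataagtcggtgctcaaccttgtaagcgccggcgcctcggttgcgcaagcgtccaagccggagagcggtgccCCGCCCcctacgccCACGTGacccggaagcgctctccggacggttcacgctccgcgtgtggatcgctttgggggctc
Prmt6: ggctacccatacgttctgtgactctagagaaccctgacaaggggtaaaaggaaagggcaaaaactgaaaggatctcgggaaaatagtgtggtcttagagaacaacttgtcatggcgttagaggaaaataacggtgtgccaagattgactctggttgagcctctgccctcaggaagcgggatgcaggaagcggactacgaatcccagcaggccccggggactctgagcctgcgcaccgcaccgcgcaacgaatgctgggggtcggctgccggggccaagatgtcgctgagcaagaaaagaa
The windows of Prmt1 and Prmt3 each held 1 E-box, starting 181 and 13 bases before the start site. No other member with a window held this motif, and 7.15% of the 32851 RefSeq windows of the same length did. Prmt1 also had 4 GC boxes and 3 CCAAT boxes, and Prmt3 had 1 of each, where 35.7% and 37.4% of all windows held the motif. The Prmt6 window had a match to none of the 4 motifs. Among the 8 members with a window, 5 held a GC box, 4 a CCAAT box and 1, Prmt2, the TATA box found in 13.6% of all windows. These matches describe the letters of the reference and are not measured binding sites.

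Prmt1 (ENSMUSG00000109324.2, chromosome 7 of mm10, 44975989 to 44986568), the targeted gene, was lower in KO on each day. At day 2 it had 15.8, 13.1 and 14.3 CPM in the 3 KO libraries and 27.1, 26.5 and 26.1 CPM in the 3 WT libraries. At day 7 the values were 13.6, 17.4 and 16.4 CPM in KO mice and 22.3, 25.9 and 23.1 CPM in WT mice, and at day 14 they were 16.1, 14.95 and 15.1 CPM in KO mice and 25.2, 30.6 and 20.2 CPM in WT mice. Each of the 9 KO libraries had less than each of the 9 WT libraries, with WT most variable at day 14 and KO most variable at day 7. The log2 fold change was -0.89 at day 2 (95% confidence interval -1.18 to -0.59), -0.59 at day 7 (-0.88 to -0.29) and -0.72 at day 14 (-1.01 to -0.42), with adjusted p of 0.0264, 0.00675 and 0.00329 by edgeR. The KO effect was not shown to differ between days. The KO effect at day 7 minus that at day 2 was 0.30 (-0.12 to 0.72, adjusted p = 0.468), and at day 14 minus day 7 it was -0.13 (-0.55 to 0.29, adjusted p = 0.999). The day 2 call was lost in each of the 6 fits that left out 1 library and in a fit of the day 2 libraries alone (adjusted p = 0.0939), and the day 7 call was lost without KO day 7 replicate 1 (adjusted p = 0.0655). Counts are summed over all 3425 exon bases of the gene, the sources used here do not say which exons the LoxP sites flank, and crypt preparations also hold cells without villin, so undeleted exons, cells without Cre and unrecombined cells cannot be told apart in the residual level.

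**Figure D1:**
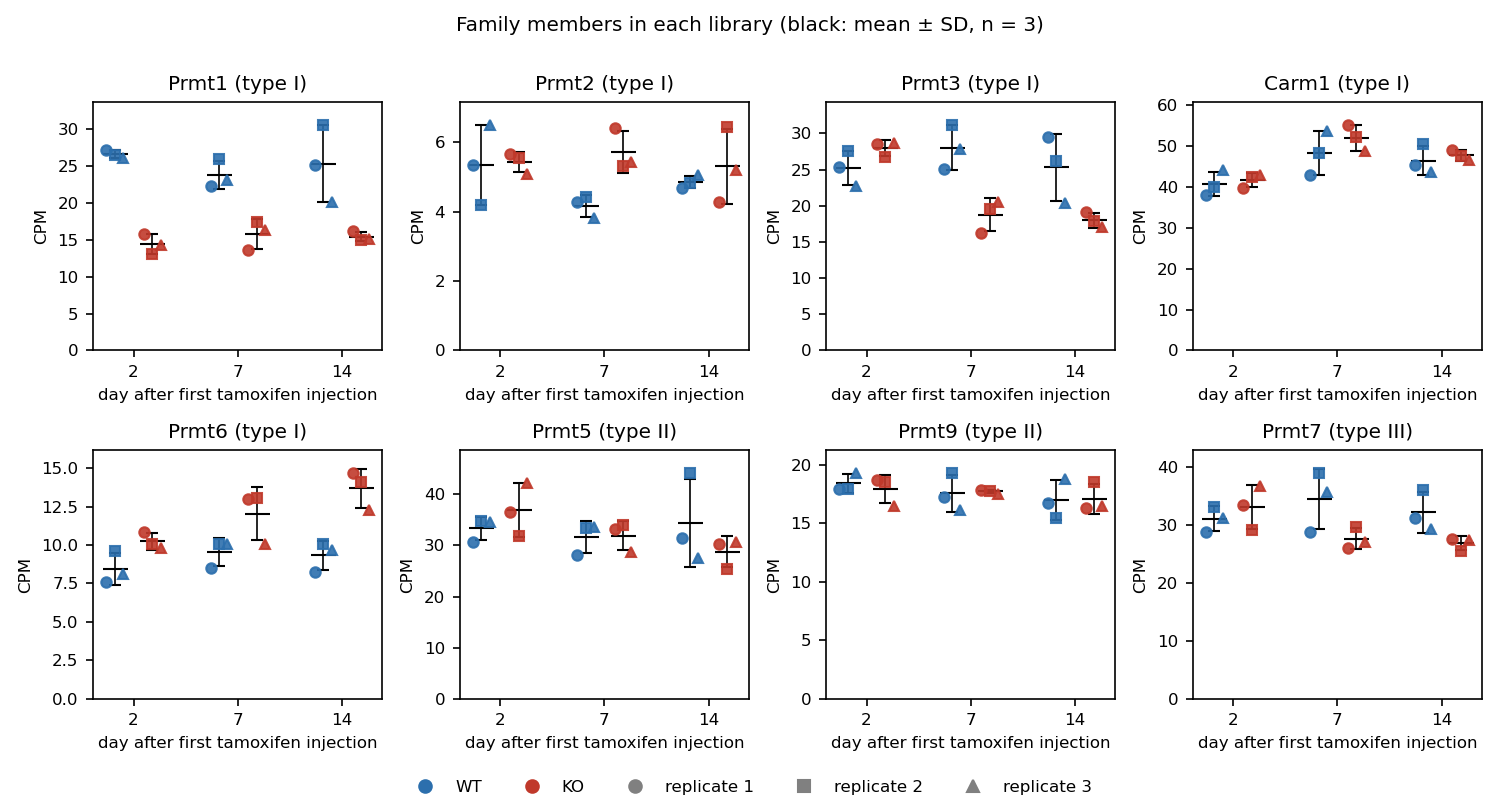
CPM of the 8 tested family members (vertical axes, each from 0) in WT (blue) and KO (red) libraries at days 2, 7 and 14 after the first tamoxifen injection, with marker shape for the replicate and black lines for the mean ± SD of 3 libraries. Prmt1 was lower in every KO library than in every WT library, Prmt3 was lower in KO at days 7 and 14, and Prmt6 was higher in KO at day 14.

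At day 2 Prmt1 was the only member called, 1 of 8 tested members against 0.0328% of all tested genes (0.0281% higher and 0.00468% lower, the latter being Prmt1 itself). At day 7, 2 of the 8 were called, Prmt1 and Prmt3, both lower, where the background was 17.3% (7.11% higher and 10.2% lower). At day 14, 3 of the 8 were called, Prmt1 and Prmt3 lower and Prmt6 higher, where the background was 7.92% (3.23% higher and 4.69% lower). Apart from the targeted gene this left 0, 1 and 2 of 7 members, and the count at day 7 was close to the background. KO and WT libraries did not overlap for 2 members at day 2 (Prmt1 and Prmt6), 3 at day 7 (Prmt1, Prmt2 and Prmt3) and 4 at day 14 (Prmt1, Prmt3, Prmt6 and Prmt7), where 8.16%, 33.6% and 26.5% of all tested genes did not overlap. The median log2 fold change of the 7 other tested members was 0.09, 0.02 and 0.01 on the 3 days, and that of all genes was -0.0048, 0.0157 and 0.0022.

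**Figure D2:**
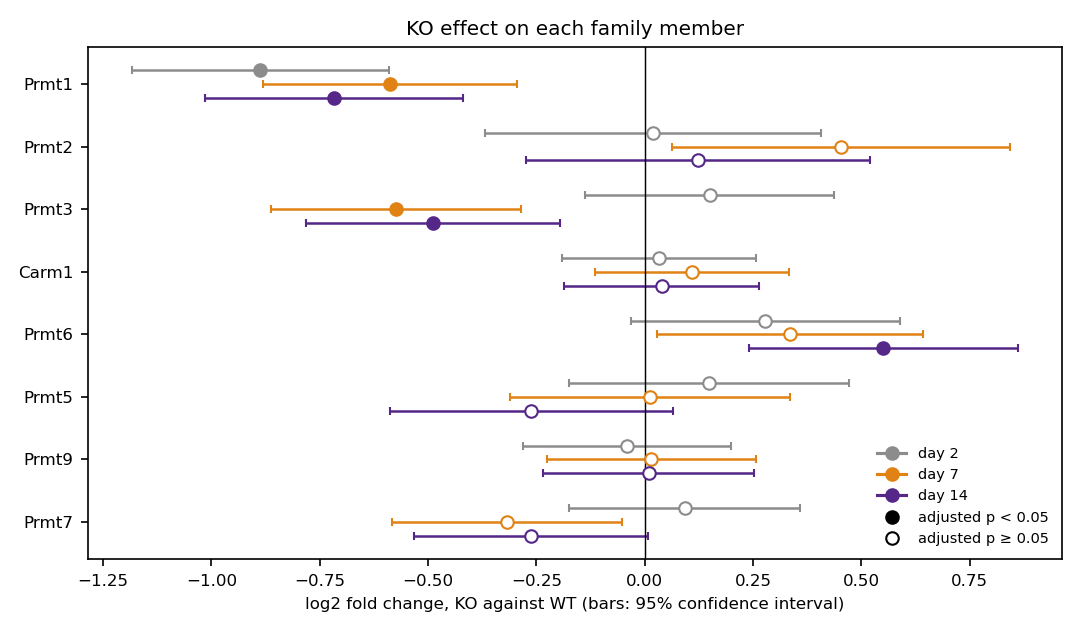
Log2 fold change of KO against WT (horizontal axis) for each tested family member at days 2 (grey), 7 (orange) and 14 (purple), with 95% confidence intervals, where filled points had an adjusted p under 0.05. Prmt1 was filled on all 3 days, Prmt3 at days 7 and 14 and Prmt6 at day 14.

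Prmt3 (ENSMUSG00000030505.17, chromosome 7, 49778346 to 49858265), the cytosolic type I enzyme known for methylating a ribosomal protein of the small subunit, was not called at day 2 and fell in KO at both later days. At day 2 it had 28.5, 26.7 and 28.7 CPM in KO mice and 25.4, 27.5 and 22.7 CPM in WT mice, with overlap. At day 7 it had 16.2, 19.6 and 20.6 CPM in KO mice and 25.04, 31.2 and 27.9 CPM in WT mice, and at day 14 it had 19.1, 17.9 and 17.1 CPM in KO mice and 29.5, 26.2 and 20.3 CPM in WT mice. Every KO library was below every WT library at both later days, by the smallest margin at day 14, where WT replicate 3 was lowest. The KO mean was 67.0% of WT at day 7 and 71.1% at day 14, against 111% at day 2. The log2 fold change on day 7 was -0.57 (SE 0.14, adjusted p = 0.00692). It was -0.49 for day 14 (SE 0.14, adjusted p = 0.036) and 0.15 for day 2 (SE 0.14, adjusted p = 0.999, interval -0.14 to 0.44). The KO effect at day 7 differed from that at day 2 by -0.72 (-1.13 to -0.32, adjusted p = 0.0394 by edgeR), and Prmt3 was the only 1 of 8 members called in this comparison, which called 4.37% of all genes (1.33% higher and 3.04% lower). Between days 14 and 7 the effect differed by 0.09 (-0.32 to 0.50, adjusted p = 0.999). No member was called in that comparison by edgeR or DESeq2, 0 had an unadjusted p under 0.05, and edgeR called 0% of all genes, with 953 at an unadjusted p under 0.05 and 2 called by DESeq2.

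The Prmt3 call at day 7 was lost without KO day 7 replicate 1 (log2 fold change -0.46, adjusted p = 0.067). Its call at day 14 held in 1 of the 6 fits that left out 1 library, the one without WT replicate 3 (adjusted p = 0.0154), was lost in the other 5 (up to 0.19), and was lost in a fit of the day 14 libraries alone (0.0883). The difference between days 7 and 2 was called in 3 of 12 such fits, with adjusted p from 0.0348 to 0.146. Gm44822, on the same strand, shares 79 exon bases with Prmt3, and fragments were counted for each gene they overlap. With every fragment of Gm44822 taken off Prmt3, the largest overlap possible, the log2 fold change of Prmt3 was -0.59 at day 7 and -0.55 at day 14.

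Prmt6 (ENSMUSG00000049300.11, chromosome 3, 110246109 to 110250998), a nuclear type I enzyme that methylates histone H3, rose in KO at day 14. It had 10.9, 10.1 and 9.79 CPM in KO mice and 7.59, 9.61 and 8.13 CPM in WT mice at day 2. At day 7 it had 13.03, 13.1 and 10.04 CPM in KO mice and 8.53, 10.1 and 10.1 CPM in WT mice. At day 14 it had 14.7, 14.1 and 12.3 CPM in KO mice and 8.23, 10.1 and 9.69 CPM in WT mice. The KO libraries were all above the WT libraries at days 2 and 14, and at day 7 KO replicate 3 fell within the WT range. Day 14 was also the day on which immune marker sums were higher and proliferation sums lower in every KO library. The KO mean was 121% of WT at day 2, 126% at day 7 and 147% at day 14. The log2 fold changes were 0.28, 0.34 and 0.55 on the 3 days, each with an SE of 0.15, and their adjusted p were 0.999, 0.128 and 0.0256. The interval for day 14 was 0.24 to 0.86. The effects of the days were not shown to differ, with a difference of 0.06 between days 7 and 2 (-0.38 to 0.49) and of 0.21 between days 14 and 7 (-0.22 to 0.65, adjusted p = 0.999).

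The day 14 call of Prmt6 held in 2 of 6 fits that left out 1 library, with adjusted p from 0.0391 to 0.114, being lost without KO replicate 1 or 2 or WT replicate 1 or 3. It was lost with no filter on low counts (0.0844) and in a fit of the day 14 libraries alone (0.0616). C130013H08Rik, on the opposite strand, shares 984 bases, 23.4% of the Prmt6 exon length, at 110250015 to 110250998, and counting did not use strand. It was chosen after its values were seen, and it had 7.75, 7.00 and 6.34 CPM in KO mice and 4.61, 5.65 and 6.63 CPM in WT mice at day 14, with overlap and a log2 fold change of 0.31 (adjusted p = 0.399). With all its fragments taken off Prmt6, Prmt6 had 6.67 ± 0.645 CPM in KO mice and 3.70 ± 0.685 CPM in WT mice on day 14 (SD, n = 3 each). Its log2 fold change was then 0.85 (SE 0.20, adjusted p = 0.0115 by edgeR), and the values at days 2 and 7 were 0.28 and 0.52.

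Carm1 (ENSMUSG00000032185.15, chromosome 9, 21546894 to 21592623), the type I enzyme also known as PRMT4, a transcriptional coactivator, was not called on any day. It had 39.7, 42.3 and 42.9 CPM in KO mice and 38.1, 40.0 and 44.1 CPM in WT mice at day 2. At day 7 it had 55.2, 52.1 and 48.9 CPM in KO mice and 43.0, 48.2 and 53.7 CPM in WT mice, and at day 14 it had 49.1, 47.6 and 46.5 CPM in KO mice and 45.3, 50.5 and 43.6 CPM in WT mice. KO and WT overlapped on every day. The log2 fold change was 0.03, 0.11 and 0.04 at days 2, 7 and 14, with adjusted p of 0.999, 0.545 and 0.884, and the intervals reached 0.33 at most (day 7, -0.11 to 0.33). Yipf2, on the opposite strand, shares 1025 exon bases with Carm1, 21.1% of its exon length. With all Yipf2 fragments taken off, the log2 fold changes of Carm1 were 0.18, 0.29 and 0.20, and none was called.

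Prmt2 (ENSMUSG00000020230.15, chromosome 10, 76207222 to 76237865), a type I member with weak activity that acts as a nuclear receptor coactivator, was not called on any day. At day 7 it had 6.40, 5.30 and 5.41 CPM in KO mice and 4.28, 4.41 and 3.81 CPM in WT mice, all KO libraries above all WT libraries. Its log2 fold change there was 0.45 (SE 0.19, adjusted p = 0.105, interval 0.06 to 0.84), which did not pass the threshold. At day 2 it had 5.66, 5.53 and 5.09 CPM in KO mice and 5.33, 4.18 and 6.5003 CPM in WT mice, and at day 14 it had 4.27, 6.43 and 5.19 CPM in KO mice and 4.68, 4.82 and 5.05 CPM in WT mice. Libraries overlapped on these days, with log2 fold changes of 0.02 (-0.37 to 0.41) and 0.12 (-0.27 to 0.52). Mir678, on the same strand, shares 84 exon bases with Prmt2, 2.48% of its exon length.

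Prmt8 (ENSMUSG00000030350.8, chromosome 6), the closest relative of Prmt1 and known from brain, had 0 counts in 17 libraries and 2 counts in WT day 7 replicate 1. It did not pass the filter on low counts and was not tested. A count of 0 allows up to 3 counts, which is 0.105 to 0.227 CPM depending on the library, counting error only. The 2 counts lie below this floor, and no difference between KO and WT was detectable at this depth.

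Among type II members, Prmt5 (ENSMUSG00000023110.12, chromosome 14, 54507187 to 54517525) is the main source of symmetric dimethylarginine and works with the WD-repeat protein Wdr77. It had 36.6, 31.8 and 42.3 CPM in KO mice and 30.8, 34.8 and 34.5 CPM in WT mice at day 2. At day 7 it had 33.2, 33.9 and 28.6 CPM in KO mice and 28.1, 33.4 and 33.5 CPM in WT mice, and at day 14 it had 30.4, 25.3 and 30.6 CPM in KO mice and 31.4, 44.2 and 27.6 CPM in WT mice. The groups overlapped on all 3 days, and WT day 14 replicate 2 was the highest of all libraries. The log2 fold change was 0.15 (-0.18 to 0.47) at day 2, 0.01 (-0.31 to 0.34) at day 7 and -0.26 (-0.59 to 0.07) at day 14, with adjusted p of 0.999, 0.971 and 0.358. Prmt9 (ENSMUSG00000037134.17, chromosome 8, 77549397 to 77581338), which methylates a splicing factor, was not called on any day either. It ranged from 16.3 to 18.7 CPM over the KO libraries and from 15.4 to 19.3 CPM over the WT libraries. Its log2 fold change was -0.04, 0.02 and 0.01, and the intervals stayed between -0.28 and 0.26.

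Prmt7 (ENSMUSG00000060098.11, chromosome 8, 106210936 to 106252794), the type III enzyme, was not called on any day. It had 33.5, 29.2 and 36.7 CPM in KO mice and 28.8, 33.2 and 31.3 CPM in WT mice at day 2. At day 7 it had 26.1, 29.7 and 27.2 CPM in KO mice and 28.7, 39.0 and 35.8 CPM in WT mice, and at day 14 it had 27.7, 25.5 and 27.5 CPM in KO mice and 31.2, 36.1 and 29.3 CPM in WT mice. The KO libraries were below the WT libraries at day 14, and at day 7 KO replicate 2 lay above WT replicate 1. The log2 fold change was 0.09 at day 2, -0.32 at day 7 (-0.58 to -0.05, adjusted p = 0.0956) and -0.26 at day 14 (-0.53 to 0.01, adjusted p = 0.247), and the difference between days 7 and 2 was -0.41 (adjusted p = 0.231). Without WT day 7 replicate 1 the day 7 value was -0.43 with an adjusted p of 0.0395. Smpd3, on the opposite strand, shares 247 bases, 4.03% of the Prmt7 exon length, and its median count was 3556.5. It had a log2 fold change of -0.21 at day 7 (adjusted p = 0.312), and the share of its fragments in the Prmt7 counts was not tested.

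In WT crypts alone, no member was called between days 7 and 2 or between days 14 and 2 by edgeR or DESeq2, where 0.553% and 1.61% of all genes were called. In these comparisons 1 member had an unadjusted p under 0.05, Carm1 at day 7 against day 2 (log2 fold change 0.25, adjusted p = 0.186 by edgeR).

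Levels of different genes were compared per length, as CPM per kilobase of exon. In WT crypts Carm1 and Prmt5 were the most abundant, with means of 8.40 to 9.96 and 8.01 to 8.70 over the 3 days, and their ranges overlapped at days 2 and 14. Prmt1 came next, with means of 7.76, 6.94 and 7.38 and a range that overlapped with the next higher member on each day, followed by Prmt7 (5.08 to 5.64), Prmt3 (4.21 to 4.67), Prmt9 (2.99 to 3.24), Prmt6 (2.01 to 2.28) and Prmt2 (1.23 to 1.58). Prmt7 and Prmt3 overlapped at days 7 and 14, Prmt1 and Prmt7 at day 14, and Prmt6 and Prmt2 at day 2, while the other neighbours below Prmt1 did not. In KO crypts Prmt1 had 4.201, 4.61 and 4.50 CPM per kb. At day 2 it stood at rank 5, after Prmt7 and Prmt3 and overlapping with Prmt3, and beside Prmt7 at days 7 and 14, where the ranges of the pair overlapped. Prmt6 had rank 7 in each WT group and in KO at days 2 and 7. In KO at day 14 its mean of 3.27 CPM per kb had rank 5, ahead of Prmt9 (3.01) and Prmt3 (3.00), with ranges that overlapped with Prmt9 and, for Prmt9, with Prmt3. The ranks of Carm1 and Prmt6 depended on the overlapping genes. With all fragments of Yipf2, C130013H08Rik and Gm44822 taken off, a lower limit chosen after seeing the data, Carm1 had means of 3.18, 4.12 and 4.03 CPM per kb in WT and ranked below Prmt5, Prmt1 and Prmt7 on each day. Prmt6 then had 1.59 CPM per kb in KO at day 14, below Prmt9 (3.01) and Prmt3 (2.35), and 0.882 in WT.

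**Figure D3:**
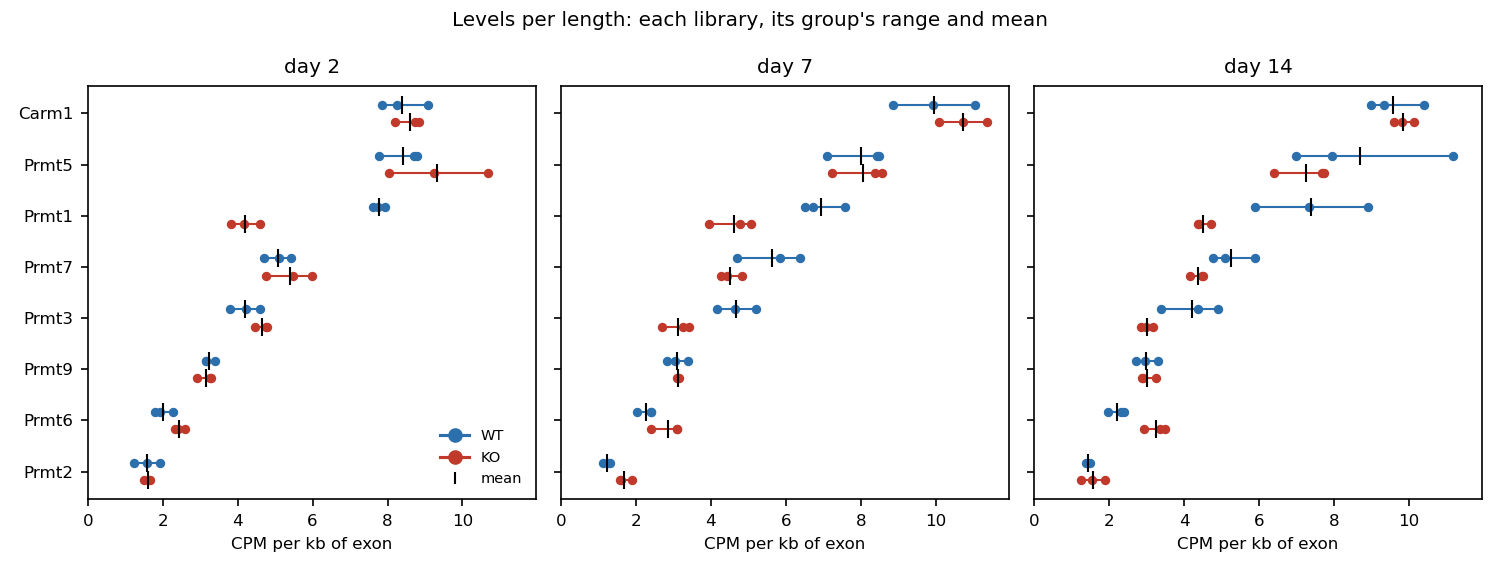
Level per length (CPM per kb of exon, horizontal axis) of each member with counts in every library, in WT (blue) and KO (red) crypts at days 2, 7 and 14, with points for libraries, lines for the range and black ticks for the mean of 3. The means of Prmt1 were 6.94 to 7.76 in WT and 4.201 to 4.61 in KO, where its range overlapped with Prmt3 at day 2 and with Prmt7 at days 7 and 14.

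The per-length levels of the type I members were summed in each library to set the loss of Prmt1 beside the levels of the others. With Prmt1 included, the sum was 21.5 ± 0.408 CPM per kb in KO and 23.955 ± 0.498 in WT at day 2 (SD, n = 3 each), 23.03 ± 0.743 and 25.1 ± 1.93 at day 7, and 22.2 ± 0.767 and 24.8 ± 2.73 at day 14. The KO sums were all below the WT sums at day 2, and the ranges overlapped at days 7 and 14. Without Prmt1, the sum was 17.3 ± 0.151 in KO and 16.2 ± 0.648 in WT at day 2, 18.4 ± 0.821 and 18.2 ± 1.55 at day 7, and 17.7 ± 0.674 and 17.5 ± 1.22 at day 14. At day 2 the KO libraries (17.2 to 17.5) lay above the WT libraries (15.5 to 16.7), and at days 7 and 14 the groups overlapped. Prmt1 made up 19.5%, 20.01% and 20.3% of the sum in KO at days 2, 7 and 14 and 32.4%, 27.7% and 29.5% in WT, with no overlap on any day. With the fragments of the 3 overlapping genes taken off, the Prmt1 share was 29.2%, 30.2% and 30.7% in KO and 46.05%, 40.9% and 42.7% in WT, again without overlap on any day. The sum with Prmt1 was then 14.4, 15.3 and 14.6 CPM per kb in KO and 16.9 to 17.2 in WT over the 3 days, and KO lay below WT without overlap at days 2 and 14. The sum without Prmt1 again lay higher in KO at day 2 and overlapped at days 7 and 14. KO minus WT as counted, the mean of Prmt1 differed by -3.56, -2.33 and -2.89 CPM per kb on the 3 days, that of Prmt6 by 0.43, 0.59 and 1.04, and that of Prmt3 by 0.46, -1.54 and -1.22. RNA sums do not measure enzyme activity.

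**Figure D4:**
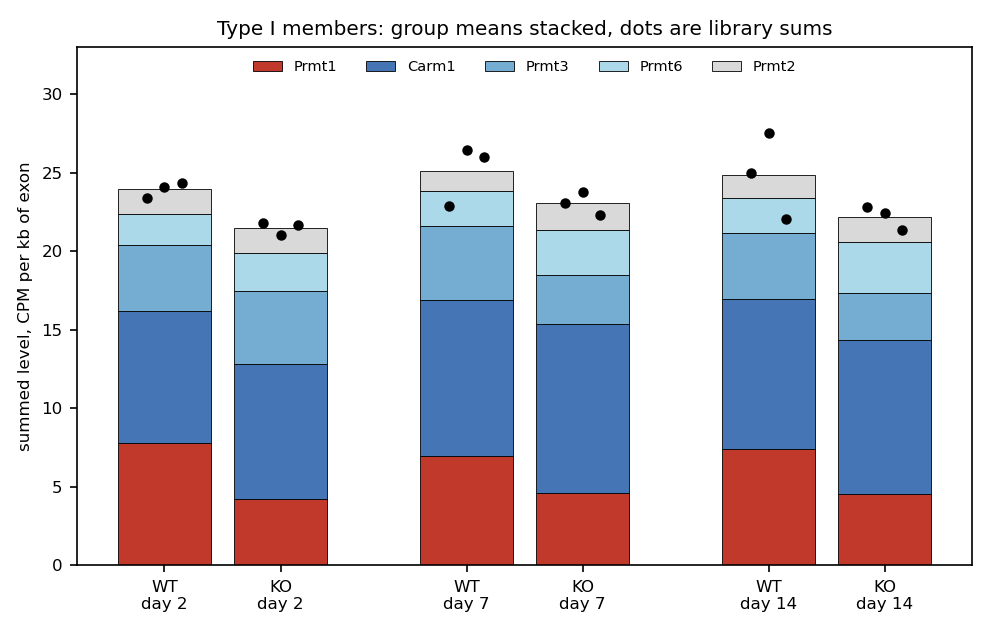
Summed level of the 5 type I members with counts in every library (CPM per kb of exon, vertical axis from 0), stacked as group means for WT and KO at days 2, 7 and 14, with black dots for the sums of single libraries. The Prmt1 segment was smaller in KO on each day, and the sum without Prmt1 had means of 16.2 to 18.2 in WT and 17.3 to 18.4 in KO.

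Of 10 cofactors and adaptors of PRMTs, 0 were called on any day by edgeR or DESeq2, and 0 had an unadjusted p under 0.05 at days 2, 7 and 14, where edgeR called 0.0328%, 17.3% and 7.92% of all tested genes. Wdr77, the partner of Prmt5, had 30.6, 41.6 and 35.5 CPM in KO mice and 40.4, 44.7 and 45.6 CPM in WT mice at day 7, with overlap, and the log2 difference of -0.28 (SE 0.14) had an adjusted p of 0.195. Its values were 0.18 at day 2 and -0.17 at day 14. Coprs, which brings Prmt5 to histones, had -0.38 (SE 0.19, adjusted p = 0.249) and Btg2, a partner of Prmt1, had 0.35 (SE 0.19, adjusted p = 0.313) at day 14. At day 7 the coactivator Ncoa2 had -0.16 and the deadenylase Cnot7 0.21. The list medians were 0.03, 0.02 and -0.04 on the 3 days, beside -0.0048, 0.0157 and 0.0022 over all genes.

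The methyl donor cycle makes S-adenosylmethionine and clears its product. Of its 15 listed genes 14 were tested, and 0 were called at day 2 (0 at an unadjusted p under 0.05, 0 by DESeq2), 2 higher and 2 lower at day 7, and 1 higher at day 14, beside 17.3% and 7.92% of all genes called on these days. The list medians were 3e-04, 0.0029 and 0.05, against the same medians over all genes. Mat2a, which makes S-adenosylmethionine outside the liver, had log2 fold changes of 0.07, 0.06 and 0.22 on the 3 days, and at day 14 its KO libraries (140.2, 140.9 and 142.7 CPM) lay above the WT libraries (138.2, 114.7 and 110.3 CPM) with an adjusted p of 0.362. Ahcy, which hydrolyses S-adenosylhomocysteine, had 0.16, 0.04 and 0.04. Ahcyl2, an Ahcy-like protein, had 632.8, 497.7 and 425.3 CPM in KO mice and 320.5, 308.1 and 326.5 CPM in WT mice at day 7 and rose by 0.70 on the log2 scale (SE 0.18, adjusted p = 0.00912). This call was lost without KO day 7 replicate 1 (0.56, adjusted p = 0.0569).

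Bhmt, which remethylates homocysteine with betaine, and Gnmt, a glycine methyltransferase that consumes S-adenosylmethionine, were near the limit of detection. Bhmt had 10 to 25 counts in KO and 0 to 4 in WT at day 7, and 14 to 20 in KO and 0 to 5 in WT at day 14. The fitted log2 fold change of Bhmt was 3.00 (SE 0.74, adjusted p = 0.0084) at day 7 and 2.795 (SE 0.66, adjusted p = 0.0115) at day 14, sizes that depend on the handling of low counts. Gnmt had 0.133, 0.211 and 0.437 CPM in KO mice and 0.648, 0.831 and 1.18 CPM in WT mice at day 7. Its log2 difference of -1.75 (SE 0.47) had an adjusted p of 0.015 and was not called without KO replicate 1 or 2 or WT replicate 3.

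Readers of methylarginine and enzymes of its turnover were 13 listed genes, of which 12 were tested. At day 2 edgeR called 0 of them (0 at an unadjusted p under 0.05, 0 by DESeq2), at day 7 it called 1, Ddah1, higher (6 at an unadjusted p under 0.05, 3 by DESeq2), and at day 14 it called 0 (1 and 1). Of the 12, 6 had all KO libraries above all WT libraries at day 7, as did 15.9% of all tested genes, and the 1 call stood beside 17.3% of all genes called. The list medians were 0.05, 0.29 and 0.07 on the 3 days, where that of all genes was 0.0157 at day 7. Ddah1, which breaks down free asymmetric dimethylarginine, had 46.2, 34.2 and 32.5 CPM in KO mice and 5.69, 12.1 and 14.2 CPM in WT mice at day 7 and rose by 1.83 on the log2 scale (SE 0.43, adjusted p = 0.00877). At day 14 it had 19.3, 24.2 and 29.0 CPM in KO mice and 15.6, 7.70 and 5.52 CPM in WT mice, again without overlap, and the log2 difference of 1.36 (SE 0.44) had an adjusted p of 0.0734. DESeq2 gave 1.35 there (adjusted p = 0.0484). Leaving out WT replicate 1 of that day, edgeR gave 1.87 (adjusted p = 0.0215). Among the readers, Smn1, whose Tudor domain binds methylated Sm proteins, had 0.44 (adjusted p = 0.0544) and its relative Smndc1 had 0.31 (adjusted p = 0.0632) at day 7. Jmjd6, an oxygenase proposed to act on methylarginine, had all KO libraries above all WT libraries on each day and log2 fold changes of 0.17, 0.25 and 0.20, none called. Agxt2, a mitochondrial enzyme that also consumes asymmetric dimethylarginine, had 0.63 at day 14 (adjusted p = 0.339).

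Of 20 listed genes whose proteins are known PRMT1 substrates, 0 were called at day 2 (0 at an unadjusted p under 0.05, 0 by DESeq2), 3 higher and 2 lower at day 7, and 1 lower at day 14. Over all tested genes 17.3% were called at day 7 and 7.92% at day 14, so the 5 of 20 and 1 of 20 were near or below the background. Their medians were -0.035, 0.11 and 0.04 on the 3 days. Hnrnpa1, an RNA-binding protein of splicing, had 237.7, 244.2 and 210.5 CPM in KO mice and 150.9, 163.4 and 150 CPM in WT mice at day 7 (log2 fold change 0.58, SE 0.12, adjusted p = 0.0025). At day 14 its values were 235.7, 220.7 and 209.5 CPM in KO mice and 172.5, 187.5 and 152.4 CPM in WT mice, also without overlap, with a log2 fold change of 0.38 (SE 0.12) and an adjusted p of 0.0588 by edgeR and 0.00372 by DESeq2. The nucleolar protein gene Ncl rose by 0.56 on the log2 scale at day 7 (SE 0.15, adjusted p = 0.013) and Taf15, an RNA-binding protein, by 0.37 (adjusted p = 0.0457), and Egfr, the epidermal growth factor receptor, fell by 0.43 on the log2 scale (adjusted p = 0.0201). Taf15, Egfr and Gnmt are named as called genes after their values were seen. The calls of Ncl, Taf15 and Egfr at day 7 were each lost when any of 3 or more single libraries was left out.

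Mre11a, a nuclease of DNA double-strand break repair, fell at both later days. It had 18.2, 20.9 and 23.01 CPM in KO mice and 26.3, 28.2 and 29.3 CPM in WT mice at day 7 (log2 fold change -0.43, SE 0.12, adjusted p = 0.0173), and 24.3, 22.6 and 18.2 CPM in KO mice and 32.4, 31.5 and 28.8 CPM in WT mice at day 14 (-0.51, SE 0.12, adjusted p = 0.0119). The KO libraries were below the WT libraries on both days. Mre11a was not called without KO day 7 replicate 1 (adjusted p = 0.137), WT day 7 replicate 3 (0.0669), KO day 14 replicate 3 (0.102) or WT day 14 replicate 1 (0.0517). Foxo1, a transcription factor, had -0.22 at day 14 (adjusted p = 0.238).

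**Figure D5:**
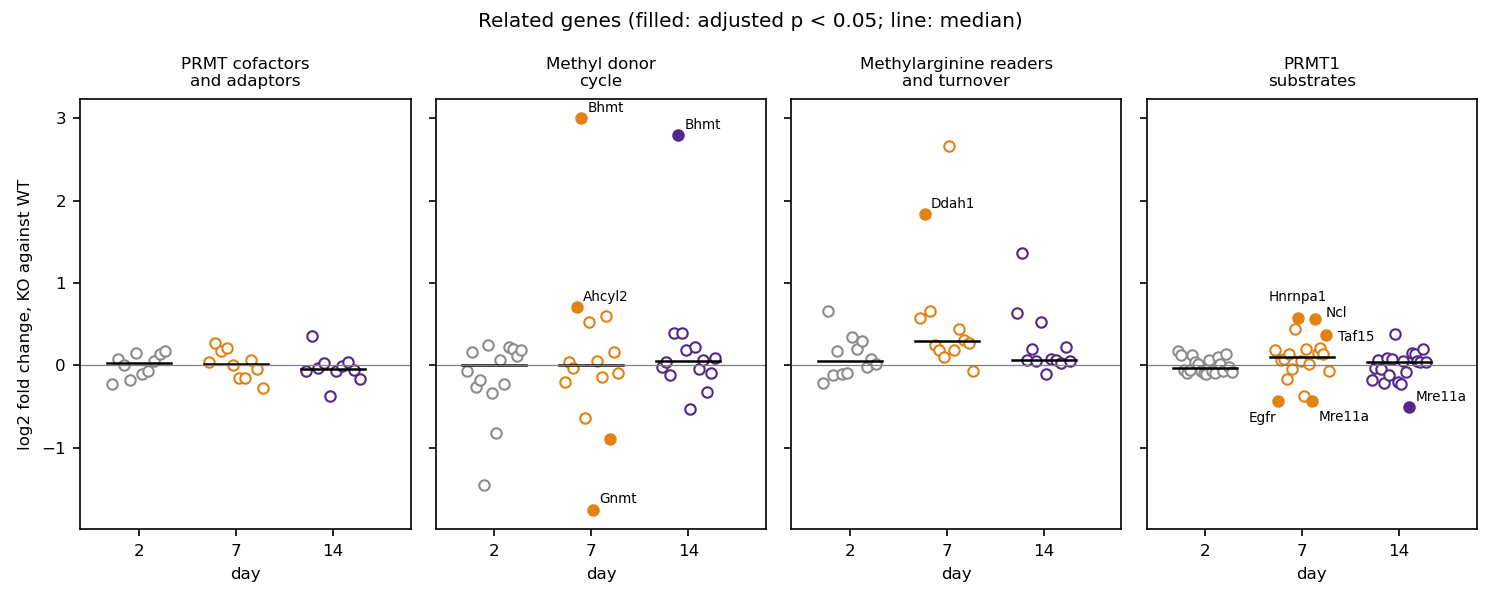
Log2 fold change of KO against WT (vertical axis) for the tested genes of 4 lists, the PRMT cofactors and adaptors (10), the methyl donor cycle (14), methylarginine readers and turnover (12) and PRMT1 substrates (20), at days 2, 7 and 14, with filled points for an adjusted p under 0.05 and black lines for the median. The called genes given in the text are named in the plot, and no gene was called at day 2.

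Within 20000 bases of Prmt1 lie 7 genes, of which 5 were tested. No exon of another gene overlaps Prmt1. Gm15545, which starts 331 bases beyond the Prmt1 start on the opposite strand, had 5.34, 5.79 and 6.55 CPM in KO mice and 8.56, 7.48 and 9.86 CPM in WT mice at day 7, without overlap (log2 fold change -0.55, SE 0.18, adjusted p = 0.0422). Its values were 0.08 at day 2 and -0.37 at day 14 (adjusted p = 0.25), and the day 7 call was lost with any of 4 single libraries left out, with no filter on low counts and in a fit of the day 7 libraries alone. Cpt1c, Bcl2l12, Irf3 and Scaf1 were not called on any day. Their log2 fold changes were 0.84, 0.56 and 0.05 for Cpt1c, a gene with SE of at least 0.63, and lay between -0.16 and 0.21 for Bcl2l12, Irf3 and Scaf1.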

How the data were processed

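RNA was sequenced from small intestinal crypts of 18 mice in 6 groups of 3 (KO and WT at days 2, 7 and 14). Per the labels and the study's methods, the authors made ribosomal RNA-depleted libraries, aligned paired reads to mm10 with STAR 2.7.3 and deposited gene counts from featureCounts 1.6.4, with fragments counted for each gene they overlap, without strand and without reads that map to several places. The submitters' processing notes also list HTSeq. The header of the table names GENCODE mouse release 23. Groups and replicate numbers came from the titles.

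From these counts, 20 genes that the study set aside as dependent on sex were left out, genes with low counts were filtered (filterByExpr by group), and edgeR 4.0.16 (TMM, robust quasi-likelihood test, 1 mean per group over all libraries, R 4.3.3) was run with Benjamini-Hochberg adjustment over all genes tested. SE and 95% intervals came from the F statistic. The scripts were tested on simulated data. Total counts per library limit the precision of low genes, and floors of 3 counts cover counting error only. Named were all members, the 3 genes with the smallest p at days 7 and 14 in each list, Wdr77, Mat2a, Ahcy and Ddah1, tested genes within 20000 bases of Prmt1, and the 5 genes most correlated with Prmt1. Beyond this rule, Gnmt, Taf15, Egfr, C130013H08Rik, Yipf2, Gm44822, Smpd3 and Mir678 were named after their values were seen. Results of some listed genes are not reported here. The members and lists were chosen with earlier results of these data known. Promoters are RefSeq windows of GRCm38.p6, and 8 of 9 members matched.

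Alternatives were DESeq2 1.42.0, DESeq2 size factors, no filter, the sex-dependent genes kept, the 20 most abundant genes left out, only the groups compared, a replicate block, each library left out and, chosen after seeing the data, overlapping fragments removed. Deviations from group means were correlated between KO and WT libraries. Same-numbered libraries all had higher correlations than the others only at day 14 (0.159 to 0.227 against -0.154 to -0.036). At day 2 they had 0.048 to 0.381, and the others -0.277 to 0.14. With 3 libraries per group, these values do not decide on any day whether the numbers mark pairs. The labels name no shared litter or day.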

Additional observations from a re-analysis of the deposited data

Results flagged for a closer look

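The KO effect at day 7 differed from that at day 2 for 4 of the family members and related genes described. The test was edgeR's test of the difference itself (KO minus WT at day 7 less KO minus WT at day 2, on the log2 scale). For Prmt3 the difference was -0.72 (SE 0.19, adjusted p = 0.0394), from a KO effect of 0.15 at day 2 to -0.57 at day 7. For Hnrnpa1 it was 0.65 (SE 0.17, adjusted p = 0.0338). For Ahcyl2 it was 0.88 (SE 0.25, adjusted p = 0.0497). For Bhmt it was 4.45 (SE 1.09, adjusted p = 0.0251), with 2 counts in each KO library and 2 to 12 in WT libraries at day 2. Each of these calls was lost in some of the fits that left out a single library. Among the cell type and proliferation markers named above, Chga, Lgr5, Lyz1 and Vim were also called in this comparison by edgeR. Their differences were 1.01 (adjusted p = 0.0268), -1.54 (0.0392), -2.17 (0.0255) and 1.29 (0.0255). Olfm4, Dclk1, Pecam1, Top2a, Bub1 and Aurkb were not called in it. Mice at day 2 had received 2 tamoxifen injections and mice at day 7 had received 5, so the number of injections and the time cannot be told apart.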

How the results depend on the processing

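No direction reversed past the threshold in any alternative. Of 824 refitted log2 fold changes of members, 791 kept their direction and side of the threshold, 31 lost a call and 2 gained one (Prmt6 at day 7, 0.48 with adjusted p = 0.0411 without KO replicate 3, and Prmt7 at day 7 without WT replicate 1). The type I sums stayed within 1 SD with DESeq2 size factors in 6 of 6 groups. With all fragments of C130013H08Rik, Yipf2 and Gm44822 taken off Prmt6, Carm1 and Prmt3, an alternative chosen after seeing the data, the sums without Prmt1 were 10.16, 10.64 and 10.13 CPM per kb in KO and 9.097, 10.06 and 9.788 in WT at days 2, 7 and 14, by construction of the largest overlap possible. With only the groups compared, 0 members were called at day 2, 1 at day 14 and 0 in the difference between days 7 and 2. With 1 library left out, 0 to 0 members were called at day 2, 0 to 3 at day 7 (0 without KO replicate 1), 1 to 2 at day 14, 0 to 1 in the difference between days 7 and 2, and 0 in the other comparisons. The cause of these shifts was not tested, beyond the smaller number of libraries.

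Over all genes, day 2 had 12 calls with DESeq2, 16 with no filter and 3 with only the groups compared. The difference between days 7 and 2 had 1406 with DESeq2, and that between days 14 and 7 had 2 with DESeq2, 2 with no filter and 1 with the replicate block. WT day 7 against day 2 had 1453 with DESeq2, 1012 with no filter, 288 without the 20 most abundant genes, 576 with only the groups compared and 62 with the block. WT day 14 against day 2 had 1366, 1011, 28 with only the groups compared and 22 with the block. With 1 library left out, calls ranged from 3 to 4 at day 2, 2051 to 4117 at day 7, 1041 to 1334 at day 14, 431 to 1295 and 0 to 2 in the differences, and 0 to 535 and 22 to 712 in WT.

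With the replicate block, members called were 1, 2 and 3 at days 2, 7 and 14, as without it, and the blocked log2 fold change of Prmt1, KO against WT, day 14 was -0.70 (adjusted p = 0.00389 by edgeR). On that day Prmt3 had -0.48 and Prmt6 0.55 (adjusted p = 0.024 and 0.0426 by edgeR). At days 2 and 7 the same-number correlations were 0.048 to 0.381 and -0.159 to 0.206, and the labels do not say on any day that a shared number marks a pair. Depth limits Prmt8, Bhmt and Gnmt.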

Other observations

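Over the 18 libraries, Pearson's r of log2 CPM with Prmt1 was 0.51 for Prmt3, 0.50 for Prmt7, 0.22 for Prmt5, -0.07 for Prmt9, -0.16 for Carm1, -0.44 for Prmt2 and -0.65 for Prmt6. These values are descriptions, since the libraries share the groups that set Prmt1. The 5 tested genes most like Prmt1 were 1810044D09Rik (r = 0.894), Tmem265 (0.836), Gm37509 (0.811), Gm9357 (0.804) and 1190001M18Rik (0.797). Of these, only Tmem265 exceeded 2 CPM in any library, with 4.98 to 10.8 CPM.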
